A study of Homo sapiens with 9 samples.

Results

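The mitochondrial respiratory chain subunits encoded in the nucleus were followed in MM.1S cells, an established human multiple myeloma line, after 24 h with epigallocatechin gallate (EGCG), a polyphenol of green tea. The cells received 0 µM (the control), 40 µM or 80 µM EGCG, with 3 RNA-seq libraries per dose and 9 in all, and the submitters give apoptosis of myeloma cells as the subject of the study. All 3 groups came from the same line grown in RPMI 1640 medium with fetal bovine serum, and the labels name no vehicle for the control. A gene was taken as a member if its protein-coding symbol belonged to the NDUFA, NDUFB, NDUFC, NDUFS or NDUFV families (complex I), was SDHA to SDHD (complex II), began with UQCR or was CYC1 (complex III), belonged to the COX5 to COX8 families (complex IV), or began with ATP5F, ATP5M or ATP5P (complex V). This took 88 of the 60675 rows of the count table. There were 38 members in complex I, 4 in complex II, 10 in complex III, 17 in complex IV and 19 in complex V. NDUFA4 and its paralog NDUFA4L2 were counted in complex IV, where structures place the NDUFA4 protein. COX4I1, the main form of subunit 4 of complex IV, lies outside the naming rule and is given separately.

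Complexes I and II pass electrons from NADH and succinate to coenzyme Q, complex III passes them on to cytochrome c, and complex IV hands them to oxygen. Complexes I, III and IV pump protons, and complex V, the ATP synthase, lets the protons back in to make ATP. Most subunits are encoded in the nucleus, translated in the cytosol and imported, while a small core is encoded by mitochondrial DNA. Myeloma cells are malignant plasma cells, which secrete large amounts of immunoglobulin.

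Library totals ran from 12674490 to 16427343 counts, and the members together held 1.05 to 1.17% of all counts in the control libraries, 0.937 to 1.11% at 40 µM and 0.805 to 0.871% at 80 µM. All 10 plasma cell markers examined passed the low-count filter. Their summed level was 8221 to 8563 CPM (counts scaled to library size with TMM factors) in the control, 7723 to 8147 at 40 µM and 6501 to 7097 at 80 µM; at 80 µM JCHAIN, MAF, MZB1 and CD38 fell while IRF4 and SLAMF7 rose. Of 5 mature B cell, 6 T and NK cell, 5 monocyte and 5 stromal markers, 4 passed the filter, and CD22, CD3D, NKG7, COL1A2 and LUM were at 0 in every library. The summed level of the B cell list was 19.6 to 23.1 CPM in the control, 13.8 to 17.4 at 40 µM and 8.22 to 8.63 at 80 µM, almost all of it CR2. For the T and NK list these ranges were 5.44 to 7.51, 3.35 to 5.13 and 3.59 to 4.02, for the monocyte list 6.47 to 8.42, 6.24 to 16 and 4.91 to 7.01, and for the stromal list 0.540 to 0.919, 0.288 to 0.365 and 0.223 to 0.573. Transcripts of the mitochondrial genome, its ribosomal RNAs included, held 7.60 to 8.51% of the counts in the control, 8.47 to 11.5% at 40 µM and 10.1 to 10.9% at 80 µM. The part of these shifts in the results below was not tested. Among the members, the third control library had the highest summed level of its group, 12442 CPM against 10906 and 10293, and the third 40 µM library the lowest, 9311 against 11143 and 10635.

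Of the 88 members, 80 passed the low-count filter and were tested, of 15982 genes in all. The 8 others were NDUFA3, COX6A2 and COX7B2, at 0 counts in every library, COX8C, with 2 counts in all, and COX7A1, COX6B2, ATP5MGL and the read-through ATP5MF-PTCD1, with 13, 49, 28 and 45 counts over the 9 libraries. COX6A2 and COX7A1 are the heart and skeletal muscle forms of their subunits. NDUFA3, a subunit that complex I normally contains, overlaps TFPT on the opposite strand, and TFPT also had 0 counts in every library. NDUFA6, the read-through NDUFC2-KCTD14 and NDUFS3, all counted in complex I, were tested on few counts, 120, 439 and 506 over the 9 libraries.

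At 40 µM no subunit of the chain fell beyond the test's threshold (edgeR's quasi-likelihood test, Benjamini-Hochberg adjusted p under 0.05 over all genes tested, called hereafter), and 1 of 80 members, NDUFA4L2, rose. Of all genes tested 2.3% were called in this comparison, 0.813% lower and 1.49% higher. The median log2 fold change of the members was -0.08, beside 0.01 over all genes, and 53 members had a negative value, as did 48.2% of all genes. By complex the median was -0.15 for I, 0.07 for II, -0.17 for III, 0.01 for IV and -0.03 for V. At an unadjusted p under 0.05 there were 10 of the 80 members and 3188 of the 15982 genes tested, a smaller share of the members than of all genes. DESeq2 called 2 members lower and 2 higher, among 389 and 470 of all genes. Groups that did not overlap, with every 40 µM library below or above every control library, were seen for 6 members in each direction, where the shares over all genes were 11.5% lower and 12.9% higher.

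NDUFA4L2 is a paralog of the complex IV subunit NDUFA4 and is known as a target of hypoxia-inducible factor. Its counts were 4, 12 and 12 in the control libraries, 63, 27 and 74 at 40 µM and 107, 116 and 125 at 80 µM, or 0.270, 0.893 and 0.919 CPM, 3.85, 1.94 and 5.40 CPM and 7.96, 7.39 and 9.74 CPM. The groups did not overlap at either dose. Its log2 fold change was 2.43 ± 0.45 (SE; adjusted p = 0.0239) at 40 µM, 3.59 ± 0.44 (adjusted p = 2.12e-04) at 80 µM, and 1.16 ± 0.37 (adjusted p = 0.0447) between the doses. It passed the low-count filter only through the treated libraries. A filter met in that way favours genes that are higher than in the control, so it is not independent of these calls. The call at 40 µM was lost without control replicate 1, without control replicate 3, without 40 µM replicate 3, with limma-voom and with the 6 libraries of the comparison alone (adjusted p = 0.0754, 0.0723, 0.0711, 0.0534 and 0.0804), and the one between the doses in 8 of 18 alternatives, those without 40 µM replicate 1 or 2, control replicate 2 or 3 or any 80 µM library among them. The rise at 80 µM was called in all 18. NDUFA4L2 (chromosome 12, 57234903-57240715, minus strand, GRCh38) overlaps the 3′ end of SHMT2 on the opposite strand by 33 bases. SHMT2, the mitochondrial serine hydroxymethyltransferase, had 2728, 2579 and 3113 counts in the control and 5504, 6449 and 5497 at 80 µM, and the sources used here do not give the strand setting of the counting; the share of NDUFA4L2 counts that could come from SHMT2 was not tested.

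COX7A2L (chromosome 2, 42333546-42425088), a protein of the COX7A family found in supercomplexes of complexes III and IV, had the next highest value at 40 µM but was not called. It stood at 55.9, 51.3 and 66.2 CPM in untreated cells, 140.2, 71.3 and 123 CPM at 40 µM and 78.6, 67.5 and 97.7 CPM at 80 µM. Every treated library was above every control library, and the second 40 µM library was much nearer to the control than the other 2. The log2 fold change was 0.95 ± 0.23 (adjusted p = 0.0637; range over 18 alternatives 0.00342 to 0.177) at 40 µM and 0.49 ± 0.23 (adjusted p = 0.126) at 80 µM. Without 40 µM replicate 2 it was called at both doses (adjusted p = 0.0134 and 0.0349).

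At 80 µM most tested subunit genes of every complex had a negative log2 fold change. Against the control 43 of the 80 tested members fell (53.8%) and 2 rose, NDUFA4L2 and NDUFB5, with 35 not called. Over all genes 17.5% were called lower and 17.4% higher. The members' median log2 fold change was -0.44, against 0.00 for all genes tested, and 71 of 80 had a negative value, as did 50.1% of all genes. In 53 members all 80 µM libraries lay below all control libraries and in 4 above, with 25.3% and 24.6% of all genes doing so. The 43 became 24 without 80 µM replicate 2 and 27 without 80 µM replicate 3, and lay between 30 and 45 in the other alternatives; 23 of the 45 calls held in all 18 alternatives and all 45 kept their direction. Among the members called lower, 9 had an adjusted p above 0.03 and lost the call in 5 or more alternatives. These are shares of the RNA sequenced, and in bulk RNA fewer cells of a type and less RNA per cell cannot be told apart.

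**Figure D1:**
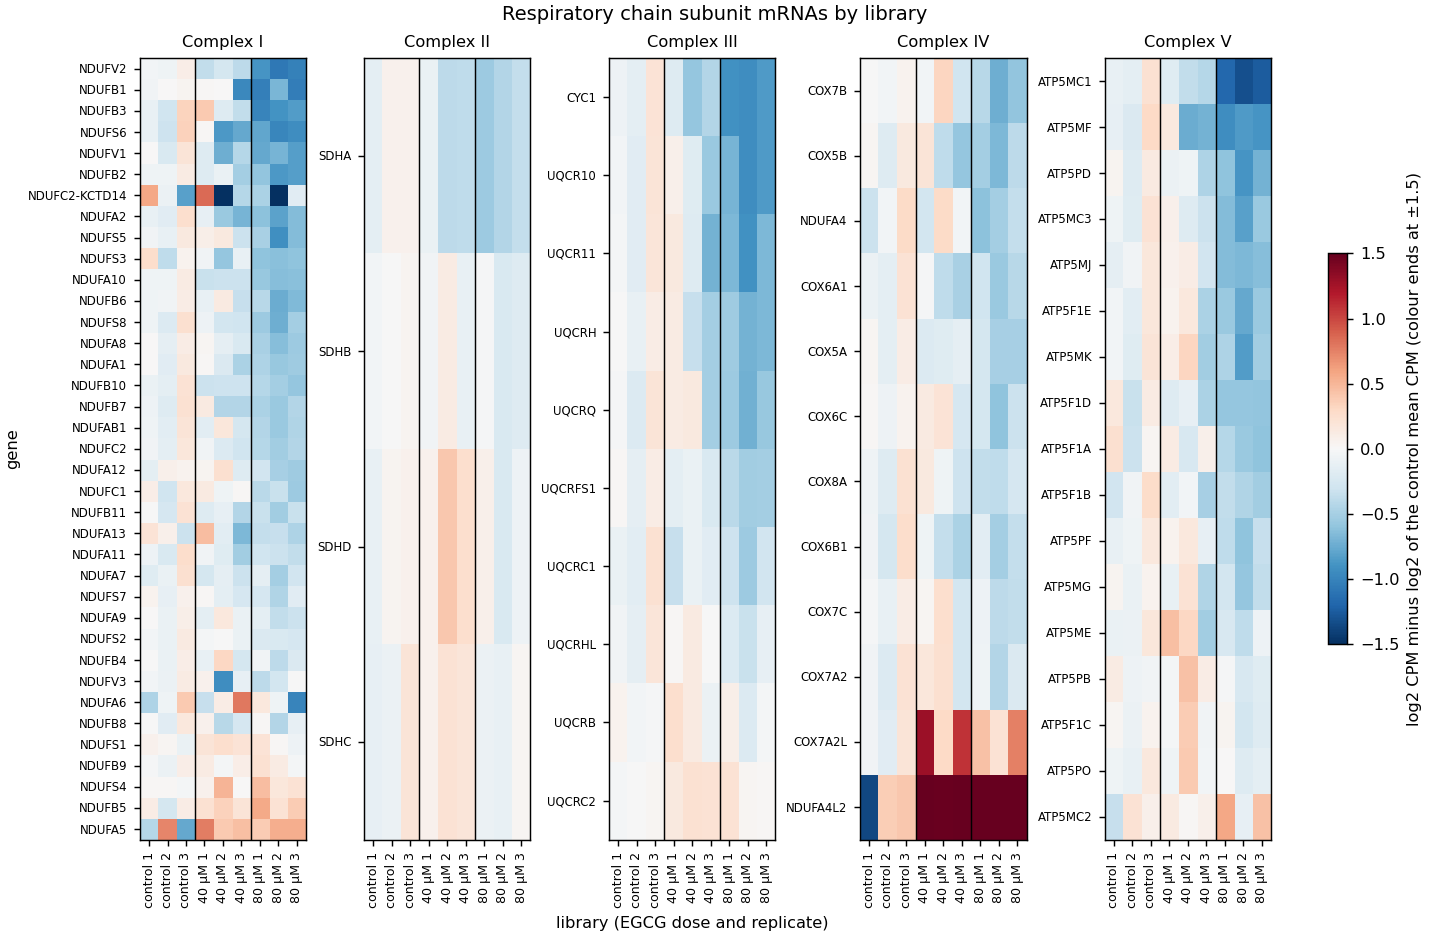
Level of each tested member in each of the 9 libraries, as log2 CPM minus the log2 of its mean control CPM, by complex and ordered by the change at 80 µM (blue lower, red higher; the colour scale ends at ±1.5). The 3 columns at 80 µM are blue for most genes of complexes I, III and V, and NDUFA4L2 and COX7A2L stand out in red.

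**Figure D2:**
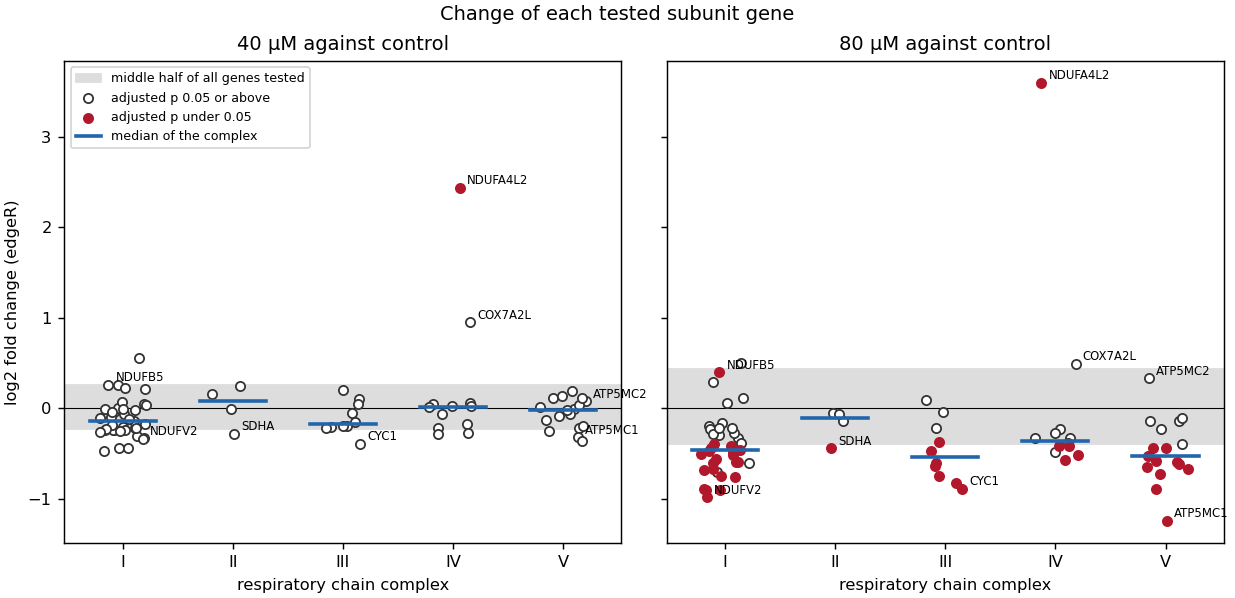
Log2 fold change of each tested member at 40 µM and 80 µM against the control, by complex, with called members filled and the span between the quartiles of all tested genes in grey. At 40 µM only NDUFA4L2 is filled, and at 80 µM 43 members are filled below 0 and 2 above.

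The summed level of the members, 10293 to 12442 CPM in the control, was 9311 to 11143 CPM at 40 µM and 7834 to 8755 CPM at 80 µM. The 80 µM libraries lay below all the others, and the 40 µM and control libraries overlapped. By complex, the 80 µM sum was 74.6% of the control mean for complex I, 80.4% for II, 67.9% for III, 79.0% for IV and 73.0% for V. Such sums are weighted to the most abundant genes. Over the control libraries SDHA had 21027 counts in complex II, against 3302 to 3834 for each other gene. In complex V ATP5F1B and ATP5F1A had 34236 and 29061, against at most 13129 for any other gene. The cytosolic ribosomal protein genes, another large group of abundant mRNAs, stood at 97.7%, with libraries of the 3 doses overlapping.

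**Figure D3:**
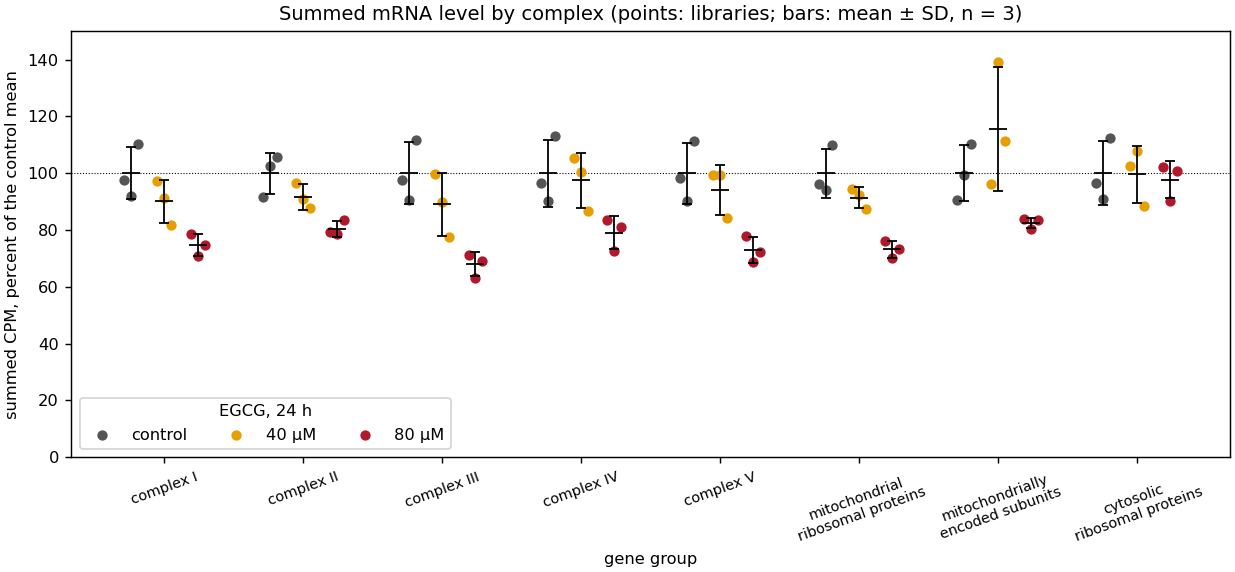
Summed CPM of the genes of each group in each library, as a percent of the group's control mean (points; bars are the mean ± SD of 3 libraries). For complexes I to V and the mitochondrial ribosomal proteins all 80 µM points lie below all control points, whereas the cytosolic ribosomal proteins overlap between doses.

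Complex I, the NADH dehydrogenase, has 7 nuclear-encoded core subunits that carry the flavin and the iron-sulphur clusters and many accessory subunits that build the arms around them. Of 37 tested members 20 fell at 80 µM (54.1%, against 17.5% of all genes) and 1 rose (2.70%, against 17.4%). The median log2 fold change was -0.46. The core gave 3 falls of 7 (NDUFV1, NDUFV2 and NDUFS8), the NDUFB subunits of the distal membrane arm 7 falls and 1 rise of 11, and the other accessory subunits 10 falls of 18. These parts hold too few genes to be ranked by such counts. The remaining tested member, the read-through NDUFC2-KCTD14, was not called (log2 fold change -0.71, adjusted p = 0.4745). NDUFV2 (chromosome 18, 9102630-9134345), an iron-sulphur core subunit of the NADH-binding module, went from 321, 316 and 354 CPM in the control to 255, 276 and 251 at 40 µM and 179, 157 and 164 at 80 µM. All 3 doses were separate, in order of dose, and the log2 fold change at 80 µM was -0.99 ± 0.10 (adjusted p = 5.13e-05), while that at 40 µM, -0.34 ± 0.10, was not called (adjusted p = 0.0922). Its pseudogene NDUFV2P1 held counts equal to 19.3% of those of NDUFV2, so that reads may be shared between them. NDUFV1, the flavin-binding partner of NDUFV2, had 217, 185 and 246 CPM in the control and 127, 133 and 122 at 80 µM, for a log2 fold change of -0.76 ± 0.15 (adjusted p = 0.00277).

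NDUFB1 (chromosome 14, 92116122-92121917), a small accessory subunit of the distal membrane arm, stood at 24.8, 26 and 26.6 CPM in untreated cells, 26.2, 25.9 and 13.2 at 40 µM and 12.6, 16.1 and 12.5 at 80 µM. The first and second 40 µM libraries were at the control level and the third was at the 80 µM level. Its log2 fold change at 80 µM was -0.91 ± 0.23 (adjusted p = 0.0127; 0.0509 without 80 µM replicate 3). NDUFB3, another member of that arm, fell by a similar amount (-0.90 ± 0.21, adjusted p = 0.00802), as did NDUFS6, which lies in the peripheral arm (-0.89 ± 0.24, adjusted p = 0.0142). The call for NDUFS6 was lost without control replicate 3 or 80 µM replicate 2 (adjusted p = 0.0579 and 0.0541). NDUFS5 (chromosome 1, 39026318-39034636), the complex I member with the highest control FPKM (fragments scaled to gene length and library size, from the deposited table), went from 136, 129.9 and 156 CPM to 149, 156 and 113 at 40 µM and 100.5, 74.6 and 89.6 at 80 µM. Its 80 µM libraries lay below all the others, and the log2 fold change was -0.67 ± 0.15 (adjusted p = 0.00641).

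NDUFB5 (chromosome 3, 179604690-179627647) was the only complex I gene called higher at 80 µM. It had 82.5, 63.4 and 82.5 CPM in untreated cells, 89.4, 96.8 and 87.2 at 40 µM and 113, 88.8 and 99 at 80 µM. The log2 fold change at 80 µM was 0.40 ± 0.13 (adjusted p = 0.0404), and the call was lost in 9 of 18 alternatives (adjusted p 0.0227 to 0.153), among them those without control replicate 1, 2 or 3, 40 µM replicate 1 or 3, and 80 µM replicate 1 or 3. Several other complex I genes were not called at 80 µM. NDUFA5 was not called at 40 µM (adjusted p = 0.3497) or 80 µM (adjusted p = 0.2465). Only without control replicate 2 was it called higher, at 40 µM (1.14, adjusted p = 0.0109) and at 80 µM (1.09, adjusted p = 0.00125). NDUFS1, the largest core subunit, had a log2 fold change of 0.05 ± 0.10 (95% interval -0.17 to 0.27), and NDUFB9 one of 0.11 ± 0.12 (95% interval -0.15 to 0.37). NDUFS3 (chromosome 11, 47565336-47584562), the core subunit with the lowest FPKM, had 84, 49 and 64 counts in the control and 42, 48 and 40 at 80 µM (-0.61 ± 0.23, adjusted p = 0.0596, not called).

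Complex II, succinate dehydrogenase, is the only complex of the chain whose subunits are all encoded in the nucleus. Of its 4 genes 1 was called lower at 80 µM (25%, against 17.5% of all genes) and none higher. SDHA (chromosome 5, 218241-256700), the flavoprotein that oxidises succinate, fell from 463, 533 and 536 CPM to 350.4, 376 and 397 CPM at 80 µM, with 478, 388 and 394 CPM at 40 µM. Its log2 fold change was -0.45 ± 0.11 (adjusted p = 0.0113), and the pseudogenes SDHAP1 and SDHAP4 held counts equal to 14.9% and 9.43% of its own. The iron-sulphur subunit SDHB had -0.14 ± 0.10 (95% interval -0.37 to 0.09). The membrane anchors SDHC and SDHD had -0.06 ± 0.11 (95% interval -0.30 to 0.19) and -0.07 ± 0.12 (95% interval -0.34 to 0.20). None of the 3 was called at either dose, and for SDHD the control libraries read 85.9, 95.8 and 97.5 CPM and the 80 µM libraries 98.2, 79.6 and 88.1 CPM, which overlap.

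Complex III, the cytochrome bc1 complex, gave 7 falls among 10 tested members at 80 µM (70%, against 17.5% of all genes). The median log2 fold change was -0.54. Both nuclear-encoded redox subunits fell. CYC1, cytochrome c1, went from 263, 251 and 319 CPM in the control to 243, 185 and 205 at 40 µM and 148, 146 and 154 at 80 µM. Every control library was above every 40 µM library and these above every 80 µM library, and the log2 fold change at 80 µM was -0.90 ± 0.13 (adjusted p = 4.65e-04). UQCRFS1, the Rieske iron-sulphur protein, fell with -0.48 ± 0.10 (adjusted p = 0.00382). Among the small accessory subunits, UQCR10 (chromosome 22, 29767369-29770413) stood at 121, 110.3 and 142 CPM in untreated cells, 132, 109.8 and 84.9 at 40 µM and 76.5, 65.2 and 69 at 80 µM. The first 2 of the 40 µM libraries were within or near the control range, and the 80 µM change was -0.83 ± 0.16 (adjusted p = 0.00290). UQCR11, UQCRQ and UQCRC1 fell as well (-0.75 ± 0.19, -0.61 ± 0.17 and -0.38 ± 0.13). The call for UQCR11 was lost without 80 µM replicate 2 (adjusted p = 0.0521), that for UQCRQ when control replicate 1 or 3, or else 80 µM replicate 2 or 3, was left out (0.0505 to 0.0776), and that for UQCRC1 in 9 of 18 alternatives (0.0303 to 0.178 over all).

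UQCRH (chromosome 1, 46303631-46316776), the hinge protein between cytochromes c1 and c, and its near-identical copy UQCRHL cannot be fully separated by short reads. UQCRH went from 210.0, 197 and 229 CPM to 230.5, 167 and 149 at 40 µM and 146, 129.8 and 133 at 80 µM (-0.64 ± 0.15, adjusted p = 0.00859 at 80 µM), and UQCRHL from 60.1, 56.8 and 70.7 to 54.1, 49.7 and 57.5 CPM (-0.22 ± 0.12, adjusted p = 0.175, not called). UQCRHL made up 22.8 ± 0.747% of the pair's counts in the control and 28.3 ± 1.67% at 80 µM (SD, n = 3). Not called in complex III were also UQCRB, with 73.7, 69.4 and 70.3 CPM in the control and 75.9, 61.6 and 69.8 at 80 µM (-0.04 ± 0.12, 95% interval -0.31 to 0.22), and the core protein UQCRC2 (0.09 ± 0.10, 95% interval -0.12 to 0.30).

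Complex IV, cytochrome c oxidase, had 12 tested members. Of its 10 ubiquitous nuclear-encoded subunits 4 fell at 80 µM (40%, against 17.5% of all genes), and none of these 4 calls held in all 18 alternatives. All 10 had a negative log2 fold change, with a median of -0.40. COX7B (chromosome X, 77899438-77907373) went from 104, 102 and 109 CPM in the control to 102, 131 and 85.3 at 40 µM and 78.7, 63.2 and 69.5 at 80 µM, and COX5B (chromosome 2, 97646040-97648383), which binds zinc, from 145, 124 and 157 to 162, 109 and 94.7 and 99.6, 89.2 and 108. In both genes the 40 µM libraries ranged from above the control to near the 80 µM level. Their log2 fold changes at 80 µM were -0.58 ± 0.15 (adjusted p = 0.0142; lost without 80 µM replicate 2 or 3, at most 0.0683) and -0.52 ± 0.18 (adjusted p = 0.0492; lost in 11 of 18 alternatives, 0.00975 to 0.164, also without control replicate 1 or 3, 40 µM replicate 2 or any 80 µM library). COX5A fell with -0.42 ± 0.10 (adjusted p = 0.0111; 0.0597 and 0.0579 without 80 µM replicate 2 and 3). COX6A1 went from 145, 139.9 and 180.2 CPM to 154, 119 and 111 and 126, 106 and 116 CPM (-0.42 ± 0.15, adjusted p = 0.0487), a call that did not hold in 14 of 18 alternatives, with each library left out in turn except 40 µM replicate 1 among them. Its pseudogene COX6A1P2 held counts equal to 17.3% of its own.

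COX8A (chromosome 11, 63974607-63976543), the complex IV gene with the highest FPKM, had 251, 229 and 308 CPM in untreated cells, 292, 252 and 213 at 40 µM and 203, 202 and 220.1 at 80 µM. The 80 µM libraries were below the control libraries but the change was not called (-0.34 ± 0.14, adjusted p = 0.0879). NDUFA4 (chromosome 7, 10931951-10940256) had 129, 158 and 198 CPM, 134, 198 and 157 CPM and 105, 114 and 126 CPM at the 3 doses, a log2 fold change of -0.49 ± 0.18 at 80 µM (adjusted p = 0.0533, not called; called in 7 of 18 alternatives, also without control replicate 1 or 40 µM replicate 1 or 2). NDUFA4L2 made up 0.411 ± 0.183% of the counts of the pair in untreated cells, 2.36 ± 1.23% at 40 µM and 6.75 ± 0.578% at 80 µM (SD, n = 3), and NDUFA4 the rest. COX6B1 (128, 110.2 and 159.8 CPM in the control and 119, 93.3 and 104 at 80 µM, -0.33 ± 0.16) and COX7A2 (107, 96.4 and 129 and 106, 81.7 and 95.6, -0.23 ± 0.16) were not called, and their tissue-restricted paralogs COX6B2 and COX7A1 held at most 0.880% and 0.124% of their groups' counts in any library. COX7A2L held 34.3, 34.7 and 33.9% of the COX7A counts in the control libraries, 53, 35.3 and 57.3% at 40 µM and 42.7, 45.2 and 50.5% at 80 µM. COX4I1, outside the rule, stood at 113 ± 25.1 CPM in the control and 93.8 ± 6.03 at 80 µM (SD, n = 3) and was not called; CYCS, cytochrome c itself, fell from 302 ± 62.1 to 213 ± 23.6 CPM (-0.50 ± 0.16, adjusted p = 0.0291), a call lost when control or 80 µM replicate 2 or 3 was left out.

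Complex V, the ATP synthase, joins a catalytic F1 head to a proton-driven ring of c subunits through central and peripheral stalks. At 80 µM 11 of 17 tested members fell (64.7%, against 17.5% of all genes), with a median log2 fold change of -0.53. By position these were 4 of 5 genes of the F1 head and central stalk, 2 of 4 of the peripheral stalk, 2 of 3 of the c ring and 3 of 5 other membrane subunits. With so few genes per position, these counts do not rank the positions. ATP5F1B (chromosome 12, 56638175-56646068), the catalytic beta subunit and the complex V gene with the highest FPKM, had 685, 808 and 1011 CPM in untreated cells, 747, 808 and 592 at 40 µM and 647, 612 and 582 at 80 µM. Its control libraries were widely spread, and the log2 fold change of -0.44 ± 0.15 (adjusted p = 0.0465) was no longer called in 10 of 18 alternatives (0.0261 to 0.146), also without control replicate 2 or 3, 40 µM replicate 1 or any 80 µM library. ATP5F1A, the alpha subunit, fell with -0.53 ± 0.15 (adjusted p = 0.0202; 0.0929, 0.0696 and 0.0783 without control replicate 1 and 80 µM replicates 2 and 3). The membrane subunit ATP5MF (chromosome 7, 99448475-99466331) went from 97.3, 91 and 130.1 CPM to 118, 63.5 and 64.7 and 55.6, 58.8 and 57.3 CPM (-0.89 ± 0.23, adjusted p = 0.0128; 0.0515 without control replicate 3). ATP5MJ (chromosome 14, 103912288-103928269), a small subunit with the lowest FPKM of the complex, had 30.7, 32.3 and 37.7 CPM in untreated cells, 35, 36.3 and 27.6 at 40 µM and 21.3, 21.1 and 21.6 at 80 µM, where it fell (-0.65 ± 0.14, adjusted p = 0.00433). Not called were the gamma subunit ATP5F1C (-0.14 ± 0.13, 95% interval -0.44 to 0.16) and the stalk subunit ATP5PO (-0.11 ± 0.14, 95% interval -0.41 to 0.20).

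The 3 genes ATP5MC1, ATP5MC2 and ATP5MC3 encode the same mature c subunit with different import sequences. ATP5MC1 (chromosome 17, 48892765-48895871, GRCh38) stood at 80.0, 78.2 and 101 CPM in untreated cells, 76.2, 66.9 and 64.6 at 40 µM and 38.2, 34.8 and 36.4 at 80 µM. The 3 doses did not overlap, and the change at 80 µM, -1.25 ± 0.13 (adjusted p = 7.57e-05), was the largest fall of any member and was called in all 18 alternatives. ATP5MC3 (chromosome 2, 175176258-175184607) went from 305, 281 and 369 CPM to 335, 279.6 and 255 and 203, 182 and 216 CPM (-0.67 ± 0.14, adjusted p = 0.00380). ATP5MC2 (chromosome 12, 53632726-53677408) had 90.3, 134 and 121 CPM in untreated cells, 126, 116 and 121 at 40 µM and 172, 106 and 156 at 80 µM, where the second library lay within the control range and the other 2 above it. Its log2 fold change of 0.33 ± 0.19 was not called (adjusted p = 0.196; 0.0382 without 80 µM replicate 2). As shares of the c subunit counts, ATP5MC1 held 16.6 ± 0.658% in the control and 9.65 ± 1.00% at 80 µM, ATP5MC2 22.2 ± 4.36% and 37.6 ± 4.48%, and ATP5MC3 61.2 ± 3.77% and 52.8 ± 3.68% (SD, n = 3).

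**Figure D4:**
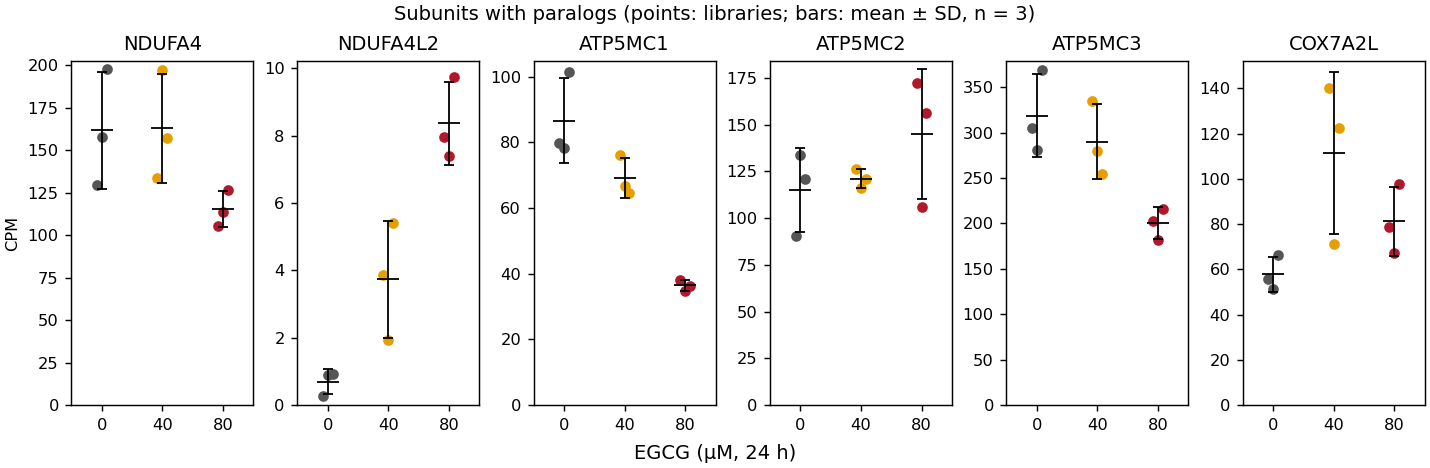
CPM of 6 subunit genes with paralogs in each library (points; bars are the mean ± SD of 3 libraries), each on its own axis from 0. NDUFA4L2 rises from under 1 CPM to 7.39 to 9.74 CPM, ATP5MC1 and ATP5MC3 are lowest at 80 µM, and the ATP5MC2 libraries overlap between doses.

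Between the doses, 21 of 80 members were lower at 80 µM than at 40 µM (12.1% of all genes were called lower) and 1, NDUFA4L2, was higher (10.9% over all genes), with a median log2 fold change of -0.32 against -0.01 for all genes. There were 8 falls in complex I, none in complex II, 4 in complex III, 2 in complex IV and 7 in complex V. ATP5MC1 (-0.93 ± 0.13, adjusted p = 0.00107), NDUFV2 (-0.64 ± 0.10, adjusted p = 0.00147) and NDUFB3 (-0.89 ± 0.21, adjusted p = 0.0139) were among the falls. In 35 members all 80 µM libraries lay below all 40 µM libraries, and in 1, NDUFA4L2, above, where 21.5% and 20.1% of all genes did so; 73 members had a negative value, as did 50.8% of all genes. The count of 21 rested on single libraries: it was 3 without 80 µM replicate 2, 7 without 80 µM replicate 3, 8 without 40 µM replicate 1, 12 without 40 µM replicate 2 and 14 without 80 µM replicate 1, and 3 of the 22 calls held in all 18 alternatives. This comparison uses the same 80 µM libraries as the one with the control, so their values are not independent.

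Control levels per length differed widely between subunits of 1 complex. By FPKM the highest and lowest tested members were NDUFS5 at 170.5 ± 8.62 and NDUFS3 at 0.315 ± 0.0698 in complex I, SDHA at 35.2 ± 2.44 and SDHD at 15.5 ± 0.837 in complex II, UQCRH at 109.6 ± 4.30 and UQCRB at 4.28 ± 0.282 in complex III, COX8A at 528 ± 57 and NDUFA4L2 at 0.116 ± 0.0601 in complex IV, and ATP5F1B at 159 ± 24.1 and ATP5MJ at 4.46 ± 0.275 in complex V (SD, n = 3). The order depends on the gene length used. The length implied by the deposited FPKM was 0.277 to 12 times the annotated exon length over 77 members. With CPM per kilobase of the principal transcript instead, UQCRH (350.5 ± 26.5), COX8A (518 ± 80.4), SDHA (214 ± 17.2) and ATP5F1B (454 ± 89.5) stayed highest in their complexes, while in complex I NDUFA11 led and in complex V ATP5PB was lowest.

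Calls among the genes that assemble the complexes are given beside the shares over all genes at 80 µM, 17.5% lower and 17.4% higher. Of 19 complex I assembly factors 8 fell (42.1%) and none rose, and NDUFAF8 (-0.87 ± 0.15) and NDUFAF3 (-0.78 ± 0.15) fell most. For complex III it was 3 of 6, with UQCC2 (-0.90 ± 0.12) and UQCC3 (-0.89 ± 0.22; adjusted p = 0.0511 without 80 µM replicate 2), and for complexes II and V 1 of 4 each (25%), SDHAF3 (-0.93 ± 0.20) and ATPAF1 (-0.33 ± 0.11; called in 7 of 18 alternatives, and lost with each control or 80 µM library left out). Among 25 complex IV assembly factors 7 fell (28.0%), most of all PET117 (-1.29 ± 0.18) and COA4 (-1.15 ± 0.11), and COX19 rose (0.64 ± 0.12). Of 13 coenzyme Q synthesis genes 5 were called lower (38.5%) and 2 higher (15.4%, against 17.4% of all genes). PDSS1, a subunit of the enzyme that makes the isoprenoid tail, fell from 28.1 ± 0.912 to 13.4 ± 0.753 CPM and COQ10A changed by -0.75 ± 0.16, whereas COQ10B, a coenzyme Q binding protein, rose from 13.8 ± 3.84 to 29 ± 8.06 CPM and COQ5 by 0.43 ± 0.15 (a call lost in 13 of 18 alternatives, with each 40 or 80 µM library or control replicate 2 or 3 left out among them).

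Of 17 known regulators of respiratory chain genes, 6 fell at 80 µM (35.3%, against 17.5% of all genes) and 1 rose (5.88%, against 17.4%), and 3 of the falls, TFAM, TFB1M and TFB2M, were lost with single libraries left out. PPARGC1A and PPARGC1B encode related coactivators of mitochondrial biogenesis. PPARGC1A rose from 14.8, 18.9 and 11.6 CPM to 21.9, 23.8 and 22.8 at 40 µM and 44.3, 39.7 and 35.8 at 80 µM (1.40 ± 0.17, adjusted p = 1.96e-04), and PPARGC1B fell from 54.6, 46.9 and 49.6 to 24.5, 29.5 and 23.5 CPM (-0.96 ± 0.14, adjusted p = 5.77e-04). The control and 80 µM libraries were separate for both genes. POLRMT, the mitochondrial RNA polymerase, fell with -0.63 ± 0.12 (adjusted p = 0.00252), and the other falls were PPRC1, TFAM, TFB1M and TFB2M (-0.53 to -0.42). With 1 library left out, TFAM lost the call for 3 libraries (control replicates 1 and 2 and 80 µM replicate 3), TFB2M for 3 (control replicate 1 and 80 µM replicates 2 and 3) and TFB1M for 8, all but 40 µM replicate 1. NRF1, GABPA and YY1, transcription factors that bind promoters of respiratory chain genes, were not called (-0.20 ± 0.12, 0.06 ± 0.16 and -0.15 ± 0.09).

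The 13 subunits encoded by mitochondrial DNA had a median log2 fold change of 0.22 at 40 µM, with all 13 positive and none called, and -0.25 at 80 µM, with 4 called lower: MT-ND3, MT-CO2, MT-CO3 and MT-ND6 (-0.74 ± 0.13, -0.61 ± 0.13, -0.51 ± 0.14 and -0.38 ± 0.12). MT-CO3 lost the call without 80 µM replicate 1 or 2 and MT-ND6 without control replicate 1 or 2, 40 µM replicate 3 or any 80 µM library (adjusted p up to 0.0713 and 0.110). Their summed level was 66753, 73233 and 81310 CPM in untreated cells, 71013, 102762 and 82017 at 40 µM and 61771, 59369 and 61606 at 80 µM, so that the second 40 µM library alone stood far above the rest. The mitochondrial ribosomal proteins, which translate these mRNAs, gave 30 falls and no rise among 77 tested genes at 80 µM, with a median of -0.39; MRPL17 and MRPL12 fell most (-1.42 ± 0.20 and -1.29 ± 0.16). Of 82 cytosolic ribosomal protein genes 2 were called lower and 1 higher (2.44% and 1.22%), with a median of -0.05. Called lower at 80 µM were 30.8% of the mitochondrially encoded subunits and 39.0% of the mitochondrial ribosomal proteins, against 17.5% of all genes. No gene of either list was called higher, against 17.4% of all genes. At 40 µM none of the genes in these lists was called except MRPL4, which fell (-0.57 ± 0.10, adjusted p = 0.0207; 0.0535 to 0.0919 when control replicate 1 or 3, or else 40 µM replicate 2 or 3, was left out).

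**Figure D5:**
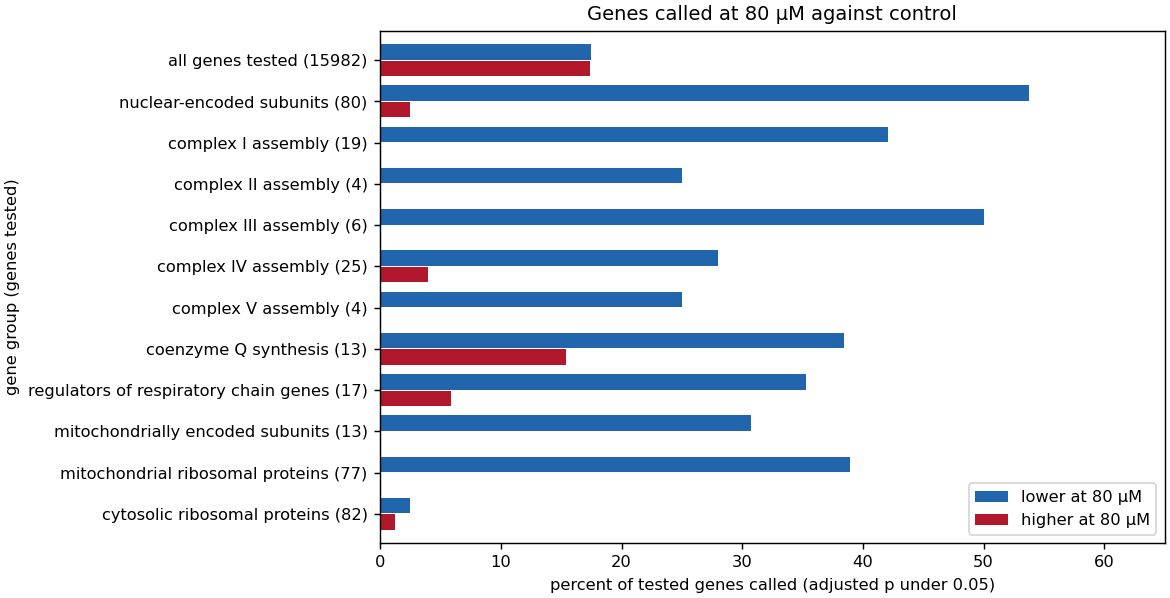
Percent of tested genes called lower (blue) or higher (red) at 80 µM against the control, for all genes and for each gene group, with the number of tested genes in brackets. The bar for lower calls is 53.8% for the nuclear-encoded subunits, 17.5% for all genes and 2.44% for the cytosolic ribosomal proteins.

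Promoter sequences, from 250 bases before to 50 after the start, were found in RefSeq (GRCh38.p14) for 69 of the 88 members. The first entry listed for each member was used. They were compared with all 35116 promoters of the same length, which were not selected by gene type, by expression or to 1 entry per gene. The percentages of the members and of all promoters thus come from unlike sets. The 5 motifs of factors known to act on these genes or in stress were searched on both strands. The palindromic NRF1 site, GCGCA joined to its reverse complement TGCGC, was present in 4 members (5.80%) against 1.24% of all promoters, the ETS core CCGGAAG bound by GABPA in 19 (27.5%) against 10.3%, and the YY1 site AAGATGGCG in 8 (11.6%) against 1.75%. The ATF4 composite site TGATGNAA was in 1 (1.45%) against 3.62%, and the hypoxia-inducible factor core ACGTG in 18 (26.1%) against 21.4%. No motif contains another, though a palindrome such as CACGTG matches ACGTG on both strands. Among 36 matched members called lower at 80 µM the counts in that order were 1, 10, 2, 1 and 7, and among 28 matched members that were tested and not called 3, 9, 6, 0 and 11. A match describes the letters only and was not measured as a binding site.

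The promoters of 5 members are printed to show these matches beside the changes they go with, each from 250 bases before to 30 after the start, 5′ to 3′ on the strand of the gene, with every match in capitals. ATP5MC1 (chr17:48892537-48892816, plus strand) had the largest fall, and ATP5MC2 (chr12:53676054-53676333, minus strand), which encodes the same mature subunit, was not called. Both carry only the ACGTG core, which in ATP5MC1 reads on both strands as CACGTG just after the start. The ATP5MC2 window lies wholly inside the gene span given above, so the start used is not the outermost one. ATP5F1C (chr10:7787927-7788206, plus strand), not called, carries the NRF1 site. UQCR11 (chr19:1605433-1605712, minus strand) and COX5B (chr2:97645812-97646091, plus strand), both called lower, each carry the ETS core at 2 places, and UQCR11 also holds CACGTG.
ATP5MC1: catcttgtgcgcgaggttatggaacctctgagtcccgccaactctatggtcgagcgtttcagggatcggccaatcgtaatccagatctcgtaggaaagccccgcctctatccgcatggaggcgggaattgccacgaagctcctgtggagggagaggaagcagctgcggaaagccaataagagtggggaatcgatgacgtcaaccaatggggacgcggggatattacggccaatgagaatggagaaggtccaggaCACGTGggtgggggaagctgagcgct
ATP5MC2: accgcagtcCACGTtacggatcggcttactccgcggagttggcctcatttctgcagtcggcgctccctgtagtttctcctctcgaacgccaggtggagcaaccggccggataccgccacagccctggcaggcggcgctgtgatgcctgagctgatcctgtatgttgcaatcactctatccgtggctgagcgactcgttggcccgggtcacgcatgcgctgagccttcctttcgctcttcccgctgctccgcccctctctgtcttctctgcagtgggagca
ATP5F1C: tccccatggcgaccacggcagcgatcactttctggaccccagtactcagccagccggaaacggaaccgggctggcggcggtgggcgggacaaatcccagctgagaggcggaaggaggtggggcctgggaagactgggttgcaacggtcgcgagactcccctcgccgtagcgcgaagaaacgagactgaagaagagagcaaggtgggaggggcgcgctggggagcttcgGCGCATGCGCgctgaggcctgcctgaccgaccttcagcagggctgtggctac
UQCR11: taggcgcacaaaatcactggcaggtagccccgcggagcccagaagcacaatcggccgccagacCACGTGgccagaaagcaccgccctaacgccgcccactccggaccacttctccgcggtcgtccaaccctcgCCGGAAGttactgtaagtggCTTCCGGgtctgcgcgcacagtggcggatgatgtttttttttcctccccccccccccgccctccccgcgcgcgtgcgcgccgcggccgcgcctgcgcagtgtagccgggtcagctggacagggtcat
COX5B: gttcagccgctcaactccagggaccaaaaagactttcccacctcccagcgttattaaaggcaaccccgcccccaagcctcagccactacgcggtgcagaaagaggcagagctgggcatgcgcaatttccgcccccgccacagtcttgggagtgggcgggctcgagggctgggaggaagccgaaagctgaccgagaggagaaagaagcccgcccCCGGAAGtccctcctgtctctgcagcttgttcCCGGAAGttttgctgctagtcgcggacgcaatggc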

How the data were processed

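RNA of MM.1S cells was sequenced in 9 libraries, 3 for each of 3 EGCG doses, after 24 h. The deposited table gives gene counts as whole numbers and FPKM values made by the authors. Per the submitters' processing notes CASAVA 1.8, HISAT2, SAMtools 1.3.1, edgeR and the build GRCh38 were used, in roles that the notes leave out. The counter, strand setting, annotation and library type are named neither there nor in the labels. The deposited FPKM implied 1 length per gene, a median of 1.61 times the exon length in GENCODE 29, and served only to order levels.

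Counts were tested with edgeR 4.0.16 (R 4.3.3; quasi-likelihood F test, TMM, filterByExpr, dose as a factor over all 9 libraries with 6 residual degrees of freedom), with Benjamini-Hochberg adjustment over the 15982 genes kept. The test was also run on counts simulated with known changes in a small set of genes, using the means and dispersions of these data. Far fewer genes changed there than were called at 80 µM, so that run does not test the scaling in these data. Errors of log2 fold changes are SE, and CPM errors SD. A count of 3, 0.183 to 0.237 CPM, is the floor for a gene at 0, for counting error only. The labels do not say that replicates were separate cultures, so p-values measure the spread between these libraries, which may be technical; no replicates were near-duplicates (chi-square per degree of freedom 11.3 to 29.4). The 18 alternatives were DESeq2 1.42.0, limma-voom (limma 3.58.1), 3 other scalings, 2 other filters, the 6 libraries of a comparison alone, a replicate block and each library left out.

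Values in every library are given for members called at 40 µM, for the 2 largest called rises and falls of each complex at 80 µM among members with a mean of at least 5 CPM, for the highest and lowest FPKM of each complex, and for paralog groups. Other members were named for their role after their values were seen. The members and all gene lists were chosen with earlier results of these data known. The cytosolic ribosomal list leaves out S6 kinases and read-through genes that its name pattern also took.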

Additional observations from a re-analysis of the deposited data

How the results depend on the processing

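No called value changed direction under the 18 alternatives. The members' median log2 fold change lay between -0.15 and 0.01 at 40 µM, -0.48 and -0.38 at 80 µM and -0.37 and -0.25 between the doses. The 40 µM median was above 0 only without 40 µM replicate 3, and that comparison moved most. Its 368 calls over all genes became 859 with DESeq2, 228 without a filter and 153 with 6 libraries, and 136 to 469 with 1 library left out. Members called higher at 40 µM were 2 with DESeq2, 0 with limma-voom, 0 with 6 libraries and 0 to 2 with 1 library left out; members called lower were 2 with DESeq2, 1 with library totals and 0 to 1 with 1 library left out. At 80 µM members called higher were 1 without a filter and 1 to 3 with 1 library left out, and members called lower 24 to 45. Between the doses members called higher were 0 without a filter and 0 to 1 with 1 library left out, members called lower 3 to 25, and calls over all genes 2101 to 4059. The cause was not tested. Of calls over all genes at 40 µM, 64.7% were higher, and 54.7% with DESeq2. For single named genes, 5585 pairs of a comparison and an alternative stayed on their side of the threshold, 328 lost the call and 65 gained it.

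With a replicate block the 40 µM comparison gave 183 calls over all genes and 2 members higher, the 80 µM comparison 37 members lower and the one between doses 15. The labels do not say that replicate numbers pair the libraries. Correlations of same-numbered libraries ran from -0.14 to 0.05, and those of differently numbered ones from -0.11 to 0.12. With 3 libraries per group this check cannot exclude a pairing. Leaving out the members that may share reads with a copy, an alternative chosen after seeing the data, gave 38 members lower at 80 µM and 19 between the doses.

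With 3 libraries per dose, the tested members with fewest counts, NDUFA6, NDUFC2-KCTD14 and NDUFS3, limit what can be seen. A change that missed the threshold is not shown to be absent.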
